A study of Rattus norvegicus with 9 samples.

Results

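The constitutive proteasome subunit genes were followed across rat hippocampal neurons incubated with vehicle, NPCT or PCT. The members were all protein-coding genes whose symbol starts with Psma, Psmb, Psmc, Psmd, Psme or Psmf and a digit, except the immunoproteasome subunits Psmb8, Psmb9 and Psmb10. This rule used symbols only and found 42 of the 34092 genes in the table. By their known roles they were 8 core alpha genes, 8 core beta genes, 9 base genes, 8 lid genes, 3 chaperones of base assembly that carry Psmd names, 4 activator genes and the regulator Psmf1. The remaining gene, Psmc3ip, fits the rule by its name alone and encodes a factor of meiotic recombination. It was kept in the counts of members but in a class of its own.

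Neurons were dissociated from hippocampi of rat fetuses at embryonic day 17 and grown for 7 days in vitro. They were then given vehicle (Control), 1 nM human procalcitonin (PCT) or 1 nM human aminoprocalcitonin (NPCT), a peptide cleaved from PCT, for 24 h, and poly-A RNA was sequenced from 3 libraries per group. The cultures received no mitotic inhibitor, so they can hold dividing non-neuronal cells, and in such bulk RNA a smaller number of cells of a type cannot be told apart from less RNA per cell. According to the methods, RNA came from pooled samples of biological triplicates while the labels number 3 replicates per group, so the p-values below measure only the spread between these libraries, which may be technical.

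The proteasome is the large protease that degrades ubiquitin-tagged proteins in the cytosol and nucleus. Its barrel-shaped core is built from rings of alpha subunits, which gate the entrance, and rings of beta subunits, of which Psmb5, Psmb6 and Psmb7 carry the catalytic sites. A regulatory particle caps the core, with a base of ATPases that unfold substrates and a lid that removes ubiquitin, and in neurons this machinery takes part in protein turnover at synapses.

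The libraries held 13573056 to 17211642 fragments on genes. PCT replicate 3 stood apart from the other PCT libraries, with a chi-square of fragments per degree of freedom of 21.6 and 18.9 against them, whereas the other pairs within groups gave 4.16 to 10.8. Its trend of level with gene length was -0.028 log2 units per doubling of length, where the NPCT libraries lay between -0.026 and -0.019, PCT replicates 1 and 2 at 0.022 and 0.027, and Control between -0.00054 and 0.029. Mitochondrial genes took 5.18% to 5.84% of the fragments in Control, 3.70% to 4.17% in NPCT and 6.21%, 5.46% and 4.11% in the PCT libraries in order of replicate, so that the NPCT libraries lay below Control without overlap and PCT replicate 3 within the NPCT range. The part of this share in the differences was not tested. Results that rest on PCT replicate 3 are given with and without it. Markers of neurons summed to 2278 to 2356 FPKM in Control, 2157 to 2222 in NPCT and 2249 to 2462 in PCT, and all 12 of them were detected. Astrocyte markers summed to 2493 to 2673, 2452 to 2712 and 2150 to 2217 FPKM, and microglial markers to 33.0 to 46.4, 43.7 to 199 and 15.6 to 20.4 FPKM, in the same order. Oligodendrocyte lineage markers summed to 475 to 491, 517 to 553 and 431 to 449 FPKM, without overlap between groups. The lower sum in PCT was not shared by most of these genes. Of the 10 tested, 8 were higher with PCT than in Control and 2 lower, with a median log2 fold change of 0.19. Fibroblast markers summed to 121 to 126, 109 to 115 and 121 to 134 FPKM, with NPCT below both other groups. The part of these cells in the differences described here was not tested.

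Of the 42 members, 39 reached a mean of 0.5 FPKM over the 9 libraries and were tested among 15958 genes. Psma8, the testis form of an alpha subunit, was listed at 0 in every library. Psmb11, the beta subunit of cortical thymus, had 1 to 6 fragments per library. Psme1, a subunit of the interferon-inducible activator, had 0 to 5 fragments. Of its span, 89.5% is shared with Emc9 on the opposite strand (mean of 1.44 FPKM), and the part of this in its low value was not tested.

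The tested subunits of the core, base and lid were all abundant, and within each class the levels per length differed several-fold between genes whose products the assembled complex holds in equal numbers. In Control, core alpha genes ranged from 24.3 ± 0.75 FPKM (SD, n = 3) for Psma4 to 110 ± 0.49 for Psma7. Core beta genes ranged from 43.4 ± 3.2 FPKM for Psmb7 to 173 ± 4.2 for Psmb4, a non-catalytic subunit and the most abundant member. Base genes lay between 39.4 ± 1.7 FPKM for the ATPase Psmc6 and 98.7 ± 3.0 for the scaffold Psmd2. Lid genes lay between 39.2 ± 2.2 FPKM for Psmd12 and 86.8 ± 4.3 for Psmd6. The ratio of the highest to the lowest gene in Control was 4.54 among alpha, 3.98 among beta, 2.50 among base and 2.21 among lid genes. Activators were lower and close to each other, from 19.9 ± 1.2 FPKM for Psme2 to 23.1 ± 0.96 for Psme4, with Psme3 between them at 22.3 ± 1.2. Of the span of Psme3, 99.97% is shared with AC123346.1 on the same strand (mean of 0.434 FPKM), and the part of this in its level was not tested. Control libraries of Psme3 and Psme4 overlapped, whereas those of Psme2 all lay below those of both. Psmf1, which encodes an inhibitor and adaptor of the core, stood at 27.7 ± 1.5 FPKM. The chaperones spanned 1.67 ± 0.70 FPKM for Psmd10 to 26.7 ± 0.40 for Psmd5, and Psmd10 had only 7 to 35 fragments per library.

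**Figure D1:**
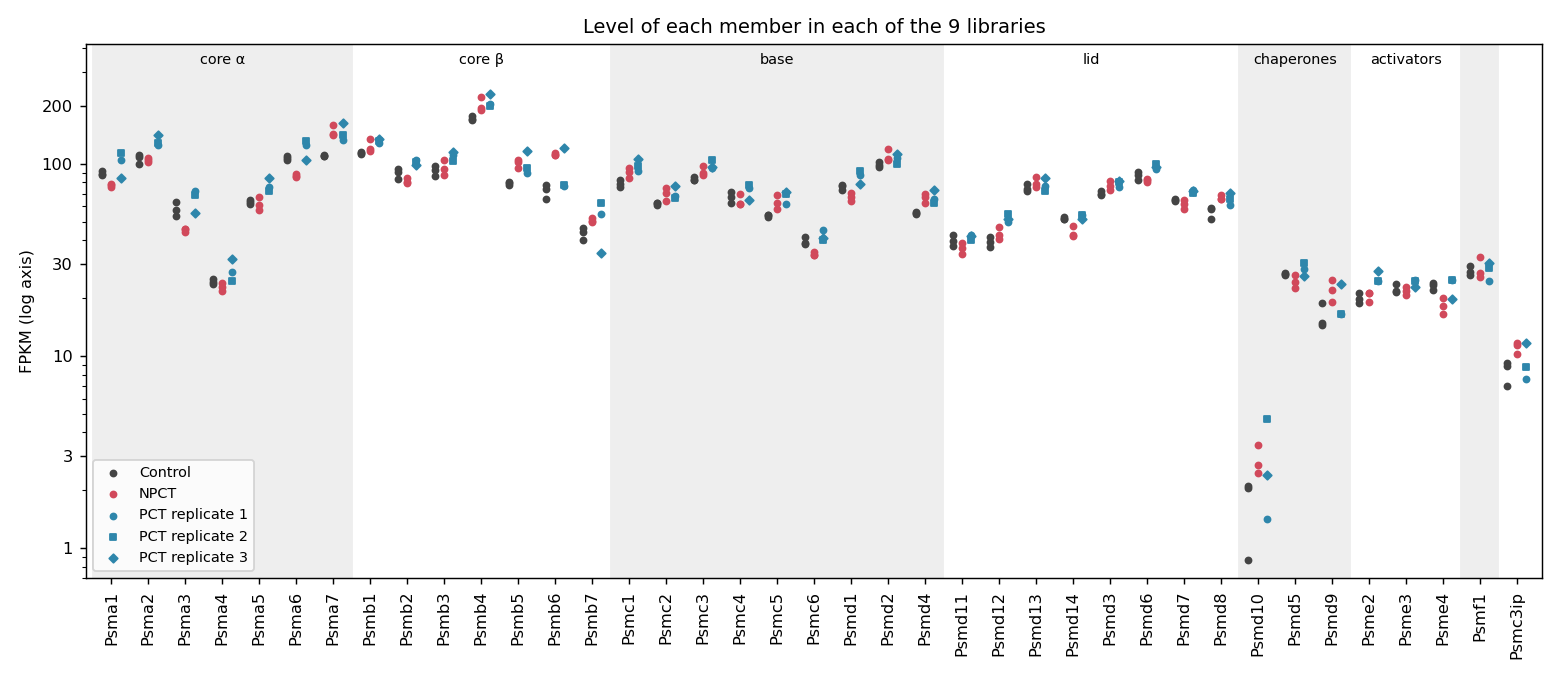
FPKM (log axis) of each of the 39 tested members in each of the 9 libraries, 3 for each of Control, NPCT and PCT, with the PCT replicates drawn by different symbols. Psmb4 lies highest and Psmd10 lowest, and for Psmb6 and Psmb7 PCT replicate 3 lies far from the other PCT libraries, above them at 121 FPKM and below them at 34.3 FPKM.

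Proteasome genes are known targets of the transcription factor Nfe2l1, which with small Maf partners binds antioxidant response elements (ARE) when proteasome activity falls. RefSeq promoters on GRCr8, 250 bases before to 50 bases after the start, were at hand for 37 of the 42 members. The letters TGACNNNGC of the ARE core, searched on both strands, occurred in 8 of the 37 promoters (21.6%), against 12.1% of all 33469 promoters of the same length. The 8 genes were Psma3, Psmb2, Psmb5, Psmb6, Psmd1, Psmd3, Psmd9 and Psme4. CCAAT boxes (CCAAT) occurred in 19 promoters (51.4%, against 37.5% of all), the site of nuclear respiratory factor 1 (CGCNTGCGC) in 5 (13.5%, against 5.8%), and the TATA letters (TATAAA) in 4 (10.8%, against 14.2%), on both strands and with overlaps between motifs allowed. Such a match describes the sequence and is no measured binding site.

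The promoters of 5 ARE-bearing genes are shown because the motif occurred whichever way their genes lay with NPCT: above Control in catalytic Psmb5 and Psmb6, below it in the alpha gene Psma3 and the activator Psme4, and overlapping with it in non-catalytic Psmb2. Each window runs 5′ to 3′ on the gene's strand from 100 bases before to 20 bases after the RefSeq start, with the ARE letters, or their reverse complement, in capitals. On GRCr8 the windows are chr15:32047360-32047479 (minus strand), chr10:55737788-55737907 (plus), chr5:144254958-144255077 (plus), chr6:95219649-95219768 (plus) and chr14:108706543-108706662 (plus).
Psmb5: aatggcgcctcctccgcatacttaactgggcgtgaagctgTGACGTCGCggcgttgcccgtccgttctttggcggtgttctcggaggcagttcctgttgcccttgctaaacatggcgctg
Psmb6: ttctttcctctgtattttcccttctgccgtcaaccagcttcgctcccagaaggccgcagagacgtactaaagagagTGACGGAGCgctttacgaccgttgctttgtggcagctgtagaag
Psmb2: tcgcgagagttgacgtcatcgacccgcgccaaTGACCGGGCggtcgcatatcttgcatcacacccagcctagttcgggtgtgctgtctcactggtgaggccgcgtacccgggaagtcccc
Psma3: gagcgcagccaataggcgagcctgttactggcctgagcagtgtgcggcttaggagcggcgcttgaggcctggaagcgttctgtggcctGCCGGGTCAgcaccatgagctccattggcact
Psme4: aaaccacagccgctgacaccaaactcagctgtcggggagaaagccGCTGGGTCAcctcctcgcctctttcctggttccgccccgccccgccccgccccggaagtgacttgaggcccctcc
The match begins 60 bases before the start in Psmb5, 24 in Psmb6, 68 in Psmb2, 12 in Psma3 and 55 in Psme4. It reads TGAC first in Psmb5, Psmb6 and Psmb2, and lies on the other strand in Psma3 and Psme4.

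To examine whether NPCT altered transcripts of the proteasome, NPCT libraries were compared with Control, from which they also differed in length trend and mitochondrial share as given above. The members did not lie on 1 side of Control, with 22 higher and 17 lower and a median log2 fold change of 0.046, where all genes had a median of 0.0062 and 50.8% were higher (limma fold changes of FPKM plus 0.1). The members' median was -0.0045 after removal of the length trend, 0.019 without NPCT replicate 3, 0.025 without Control replicate 2, 0.080 without Control replicate 3 and 0.10 without NPCT replicate 2. No member was a DEG, that is, a gene changed by more than 1.5-fold with an adjusted p not above 0.05, and 0.219% of all genes were. At the adjusted p alone, 0 members were higher (background 0.269%) and 0 lower (background 0.201%). Psma7 came nearest, with an adjusted p of 0.0509 (limma with Benjamini-Hochberg adjustment). At an unadjusted p under 0.05 in limma, 10 members were higher, or 25.6% of 39, against 14.4% of all genes, and 6 were lower, or 15.4%, against 14.9%. The 3 NPCT libraries lay above all Control libraries in 17 members (43.6%, background 20.0%) and below them in 8 (20.5%, background 20.3%). With limma-voom on the recovered fragments, 1 member was a DEG (background 2.45%), and at the adjusted p 4 were higher (background 5.30%) and 0 lower (background 3.49%).

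The fit of all 9 libraries takes its spread from the PCT libraries too, and the counts grew, over all genes as over the members, when all of these were left out together. Fitted on Control and NPCT alone, limma called 1 member a DEG, the catalytic gene Psmb6, against a background of 3.63%. In this fit 9 members were higher at the adjusted p (background 9.79%), namely Psma7, Psmb4, Psmb5, Psmb6, Psmb7, Psmc5, Psmc3ip, Psmd4 and Psmd8. Another 6 were lower (background 9.06%), namely Psma1, Psma3, Psma6, Psmc6, Psmd14 and Psme4. The same counts, 9 and 6, came from the fit of all groups without PCT replicate 3, where the backgrounds were 9.71% and 9.57%. Without PCT replicate 1 instead, 1 member was higher (background 2.25%) and 0 lower (background 2.22%). Without PCT replicate 2 the counts fell to 0 higher (background 0.00627%) and 0 lower (background 0.00%).

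Among the tested core beta genes 6 of 7 were higher with NPCT, with a median of 0.22 (0.13 after quantile normalization and 0.093 after removal of the length trend), and the number was 5 of 7 after quantile normalization, after removal of the length trend, and without Control replicate 2 or NPCT replicate 3. Psmb6, the subunit with the caspase-like site (chr10:57131386-57133637 on Rnor_6.0, plus strand), was at 77.7, 65.6 and 74.1 FPKM in Control, 114, 112 and 111 in NPCT and 76.2, 77.1 and 121 in PCT. All NPCT libraries were above all Control libraries, whereas of the PCT libraries only replicate 3 was. Its log2 fold change with NPCT was 0.63 (SE 0.16, n = 3 against 3, limma adjusted p = 0.0590, and 0.0049 in the fit of the 2 groups), or 1.55-fold. Psmb5, the chymotrypsin-like subunit and the target of most proteasome inhibitors (chr15:33259043-33263659 on Rnor_6.0, minus strand), was at 80.5, 77.3 and 79.1 FPKM in Control, 103, 94.6 and 104 in NPCT and 89.5, 95.2 and 117 in PCT. Its NPCT and PCT values overlapped and all lay above Control, by 0.35 for NPCT (SE 0.093, limma adjusted p = 0.0617, and 0.0085 in the 2-group fit). Psmb7, the trypsin-like subunit, was at 44.0, 46.2 and 39.9 FPKM in Control, 52.0, 49.5 and 50.2 in NPCT and 55.0, 62.5 and 34.3 in PCT. The NPCT libraries were above Control and PCT replicate 3 below it, while 21.6% of the gene's span is shared with Nek6 on the opposite strand (mean of 72.5 FPKM).

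Of the non-catalytic beta genes, Psmb4 had a log2 difference with NPCT close to that of Psmb7, 0.23 against 0.22, but of 0.093 against 0.18 with the length trend removed. Psmb4 was at 177, 172 and 169 FPKM in Control, 191, 195 and 223 in NPCT and 205, 200 and 231 in PCT, so that both treated groups lay above Control. Psmb2 was the only tested beta gene with a lower mean in NPCT, at 83.6, 93.8 and 90.1 FPKM in Control and 80.2, 79.6 and 84.4 in NPCT, and these ranges overlapped (log2 fold change -0.13, SE 0.059, limma adjusted p = 0.18, and -0.26 with an adjusted p of 0.0578 after removal of the length trend). A gene annotated as similar to Psmb6, LOC100360846, had 0.524 to 1.48 FPKM and was listed apart from Psmb6.

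Among the core alpha genes 6 of 7 had a lower mean with NPCT, with a median of -0.089, whereas limma-voom placed 4 lower and 3 higher and 5 were lower without Control replicate 2 or NPCT replicate 2. Without NPCT replicate 1 the median was -0.053. Psma7 (chr3:175420039-175426395 on Rnor_6.0, minus strand) was the exception, at 110, 110 and 111 FPKM in Control, 143, 142 and 160 in NPCT and 132, 142 and 163 in PCT. All treated libraries were above all Control libraries, and the difference with NPCT was 0.43 (SE 0.082), or 1.34-fold. Psma3 was at 57.5, 63.2 and 53.3 FPKM in Control, 44.1, 45.8 and 45.8 in NPCT and 72.6, 68.9 and 55.4 in PCT. The NPCT libraries lay below every other library, by -0.35 against Control (SE 0.10, limma adjusted p = 0.071, and 0.0164 in the 2-group fit). Psma6 (chr6:76174452-76205426 on Rnor_6.0, plus strand) was at 108, 104 and 109 FPKM in Control, 85.9, 85.0 and 88.6 in NPCT and 125, 131 and 105 in PCT. Here too NPCT lay below both other groups, by -0.31 against Control (SE 0.080, limma adjusted p = 0.0599, and 0.0074 in the 2-group fit). Psma4, the lowest alpha gene, was at 25.1, 24.2 and 23.6 FPKM in Control and 21.7, 22.9 and 23.9 in NPCT, which overlapped.

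In the base 6 of 9 genes had a higher mean with NPCT, with a median of 0.16, which was 0.097 without NPCT replicate 3. Psmd4, the ubiquitin receptor of the base, was at 55.5, 54.5 and 55.9 FPKM in Control, 66.9, 62.4 and 69.8 in NPCT and 65.8, 62.4 and 72.7 in PCT. The treated libraries all lay above Control (NPCT difference 0.26, SE 0.069, limma adjusted p = 0.0608). Psmc6, an ATPase of the unfolding ring, was at 41.4, 38.7 and 38.2 FPKM in Control, 33.7, 33.6 and 34.9 in NPCT and 45.0, 40.2 and 41.0 in PCT. NPCT lay below Control and PCT without overlap, by -0.21 against Control (SE 0.062, limma adjusted p = 0.074). Psmd2, the most abundant base gene, was at 102, 96.0 and 98.1 FPKM in Control, 105, 106 and 120 in NPCT and 107, 99.8 and 113 in PCT, where NPCT and Control did not overlap and PCT overlapped with both.

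The lid was divided, with 4 genes higher and 4 lower. Psmd14, the deubiquitinase of the lid, was at 51.8, 52.9 and 51.8 FPKM in Control, 42.1, 42.5 and 47.3 in NPCT and 54.3, 54.1 and 51.7 in PCT. NPCT lay below every Control and PCT library, by -0.25 against Control (SE 0.059, limma adjusted p = 0.0541, and 0.0272 in the 2-group fit). Psmd8 was at 51.4, 58.8 and 58.1 FPKM in Control, 65.8, 65.2 and 68.5 in NPCT and 60.8, 65.9 and 70.6 in PCT. Both treated groups lay above Control for this subunit (NPCT difference 0.25, SE 0.074, limma adjusted p = 0.075). Psmd6, the most abundant lid gene, was at 87.5, 90.8 and 82.2 FPKM in Control and 80.7, 83.2 and 82.4 in NPCT, and Psmd11 was at 39.4, 42.5 and 37.2 in Control and 33.8, 36.2 and 38.7 in NPCT, both with overlapping ranges.

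Outside the core, base and lid, Psme4 is the longest member, at 7130 bases. It encodes an ATP-independent activator of the core and was at 23.9, 23.3 and 22.0 FPKM in Control, 18.2, 20.0 and 16.5 in NPCT and 24.7, 24.8 and 19.8 in PCT. NPCT lay below Control by -0.34 (SE 0.10, limma adjusted p = 0.0784, and 0.029 in the 2-group fit), and PCT replicate 3 lay within the NPCT range. With the length trend removed the difference was -0.18 (SE 0.068, limma adjusted p = 0.126). Psme2 was at 19.7, 18.8 and 21.2 FPKM in Control, 21.3, 19.1 and 21.3 in NPCT and 24.4, 24.4 and 27.7 in PCT, and Psme3, a nuclear activator, was at 21.7, 21.4 and 23.7, 20.6, 21.8 and 22.8, and 24.9, 24.4 and 22.7 in the same order of groups. Control and NPCT overlapped in both. The chaperone Psmd10 was at 0.869, 2.05 and 2.11 FPKM in Control, 2.45, 3.45 and 2.71 in NPCT and 1.41, 4.69 and 2.39 in PCT, a difference of 0.82 with an SE of 0.44 (limma adjusted p = 0.244), which ranged from 0.44 to 1.03 when single libraries were left out. Its NPCT libraries lay above Control, and PCT spread over both groups. Psmd5 was at 26.7, 27.1 and 26.3 FPKM in Control, 22.6, 24.1 and 26.3 in NPCT and 28.3, 30.5 and 26.1 in PCT, and the highest NPCT library matched the lowest Control library to within rounding. Psmf1 was at 26.4, 27.3 and 29.3 FPKM in Control, 27.0, 25.8 and 32.6 in NPCT and 24.4, 28.8 and 30.4 in PCT, and its 3 groups overlapped. Psmc3ip, which is no subunit, was at 9.15, 8.83 and 6.97 FPKM in Control, 10.3, 11.7 and 11.4 in NPCT and 7.61, 8.72 and 11.7 in PCT, with NPCT above Control without overlap.

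**Figure D2:**
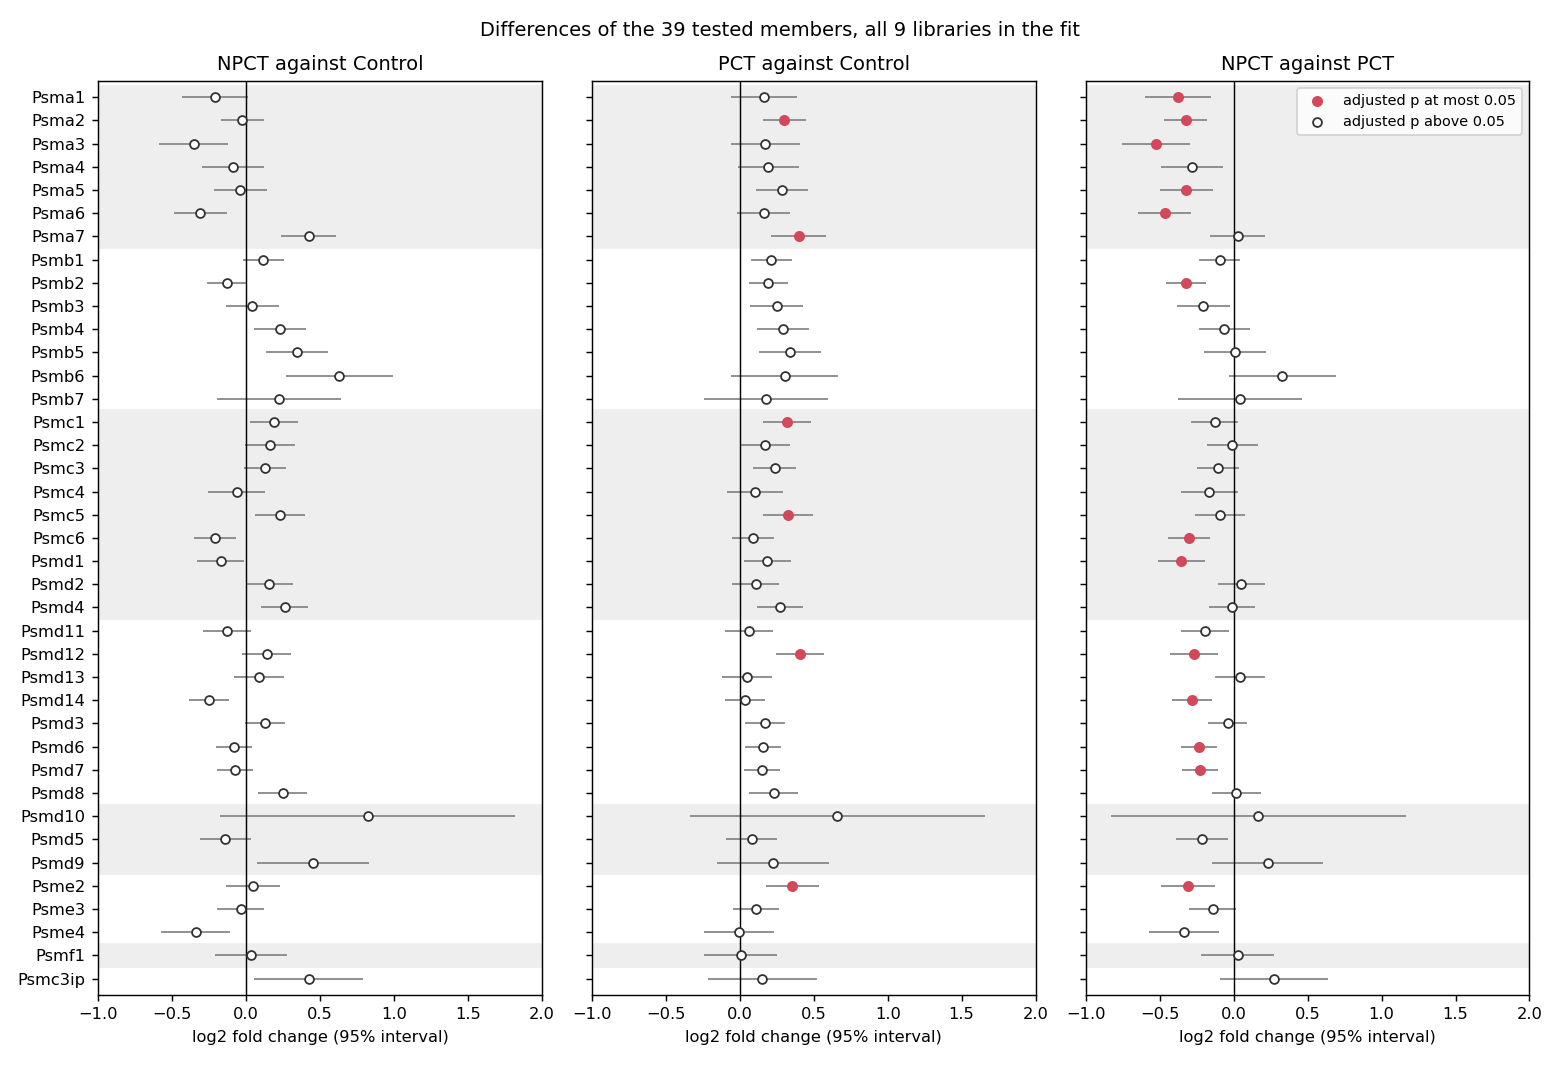
Log2 fold change of each of the 39 tested members in the 3 comparisons, with 95% intervals from the limma fit of all 9 libraries, and filled points for an adjusted p of at most 0.05. With NPCT the points lie on both sides of 0, with PCT 38 of 39 lie above 0 (35 after quantile normalization), and for NPCT against PCT the 13 filled points all lie below 0.

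PCT was then compared with the same Control libraries. In contrast to the split seen with NPCT, nearly all members were slightly higher, 38 of 39 with a median log2 fold change of 0.18, where 51.0% of all genes were higher and their median was 0.0046. The number was 35 after quantile normalization and 36 without PCT replicate 3. No member was a DEG in limma (background 2.31%, and 1.80% in the 2-group fit, where the members' count was 0 as well, as it was with limma-voom). At the adjusted p alone 6 members were upregulated, or 15.4% of 39, against 1.75% of all genes. None was lower (background 2.46%). At an unadjusted p under 0.05, 20 members were higher, or 51.3%, against 10.1% of all genes, and 0 were lower, against 8.79%. The PCT libraries lay above all Control libraries in 20 members (background 13.1%) and below them in 0 (background 11.9%).

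The 6 upregulated members came from 4 of the classes and were Psma2, Psma7, Psmc1, Psmc5, Psmd12 and Psme2. Psmd12, a scaffold subunit of the lid (chr10:95706685-95725812 on Rnor_6.0, plus strand), was at 39.0, 41.6 and 37.1 FPKM in Control, 42.4, 40.5 and 46.7 in NPCT and 50.0, 54.5 and 51.3 in PCT. PCT lay above both other groups without overlap, by 0.41 against Control (SE 0.072, 1.32-fold, limma adjusted p = 0.018), and the adjusted p was 0.0321 in the 2-group fit, where no other member passed. Psma2, an alpha subunit, was at 100, 111 and 109 FPKM in Control, 102, 105 and 108 in NPCT and 126, 128 and 141 in PCT. Control and NPCT overlapped and PCT lay above both (0.30 against Control, SE 0.064, limma adjusted p = 0.0379). Psma7 differed from Control by 0.40 with PCT (SE 0.082, limma adjusted p = 0.0326), and its PCT values overlapped with those of NPCT given above.

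The ATPase genes Psmc5 and Psmc1 showed the same order. Psmc5 was at 53.9, 54.0 and 52.9 FPKM in Control, 62.4, 58.3 and 68.7 in NPCT and 62.0, 69.2 and 70.9 in PCT. Psmc1 was at 82.1, 76.0 and 78.1 FPKM in Control, 90.6, 84.1 and 95.2 in NPCT and 92.0, 97.2 and 106 in PCT. In both genes each treated library exceeded each Control library, and with PCT the differences were 0.33 (SE 0.075, limma adjusted p = 0.0459) and 0.32 (SE 0.071, limma adjusted p = 0.0417). Psme2, a subunit of the interferon-inducible activator, was higher by 0.36 (SE 0.080, 1.28-fold, limma adjusted p = 0.0437), with all PCT libraries above all libraries of the other groups.

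These 6 calls depended on single libraries. The number of upregulated members was 0 without Control replicate 1, Control replicate 3 or PCT replicate 2, and 1 without Control replicate 2, NPCT replicate 1 or NPCT replicate 2. Leaving out PCT replicate 3 gave 5, PCT replicate 1 gave 6 and NPCT replicate 3 gave 7. The share of all genes that were higher in these 9 fits moved too, from 0.345% without Control replicate 1 to 2.04% without PCT replicate 1. Psmd12 passed in 6 of these 9 fits and Psme2 in 0. The members nearest 0 were Psme4 (log2 fold change -0.0058, 95% interval -0.24 to 0.23), Psmf1 (0.0058, -0.24 to 0.25) and Psmd14 (0.033, -0.10 to 0.17).

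The catalytic genes were not among those upregulated with PCT. Psmb5 was higher by 0.34 (SE 0.093, limma adjusted p = 0.0835), Psmb6 by 0.30 (SE 0.16, limma adjusted p = 0.35) and Psmb7 by 0.18 (SE 0.19, limma adjusted p = 0.671). The wide errors of Psmb6 and Psmb7 came with PCT replicate 3, which was the highest PCT library for Psmb6 and the lowest for Psmb7. Without it Psmb6 differed by only 0.085 (SE 0.070, limma adjusted p = 0.553), and Psma2, Psmc1, Psmc5 and Psme2 no longer passed, with limma adjusted p-values from 0.0513 to 0.0802. In the same fit Psmb7 was higher by 0.44 with an SE of 0.079 (limma adjusted p = 0.0246), and Psma1 and Psma6 were higher by 0.29 (limma adjusted p = 0.0273) and 0.26 (limma adjusted p = 0.0267). Without PCT replicate 2 instead, the differences of Psmb7, Psma1 and Psma6 were 0.0050, 0.072 and 0.096 (limma adjusted p of 0.992, 0.750 and 0.597), and each of the 3 genes passed in 1 of the 9 fits that left out a library. Over the 39 members this library was the highest of the PCT libraries in 21 (53.8%, against 38.7% of all genes) and the lowest in 11 (28.2%, against 37.4%).

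The remaining members are given here as mean ± SD (n = 3) of the FPKM in Control, NPCT and PCT. Among non-catalytic beta genes Psmb1 had 114 ± 1.4, 123 ± 9.3 and 132 ± 3.2, and Psmb3 had 92.2 ± 5.2, 95.2 ± 8.7 and 110 ± 5.6. Among the ATPases Psmc2 had 62.2 ± 0.80, 69.8 ± 5.7 and 70.2 ± 5.2, Psmc3 had 83.5 ± 1.8, 91.4 ± 5.4 and 98.3 ± 5.6, and Psmc4 had 67.1 ± 4.2, 64.3 ± 4.9 and 72.2 ± 6.3. In each of them except Psmc4 the PCT libraries lay above Control, and in none did the difference with PCT reach an adjusted p of 0.05. The lid genes Psmd3 and Psmd13 had 70.3 ± 1.5, 76.9 ± 4.2 and 79.1 ± 3.3, and 75.0 ± 3.5, 79.9 ± 5.0 and 77.6 ± 6.1. The chaperone Psmd9, with the third largest difference of the members with NPCT, had 16.0 ± 2.5, 22.0 ± 2.8 and 18.9 ± 4.2, with NPCT above Control without overlap (log2 difference 0.45, SE 0.17, limma adjusted p = 0.115).

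The peptides were also compared directly at their matched dose and time. Members were lower with NPCT than with PCT in 28 of 39 genes, with a median of -0.14, where all genes had a median of -0.0076 and 48.9% were higher. No member was a DEG (background 5.76%, and 2.84% in the 2-group fit, again with 0 members, and 0 with limma-voom). In limma 13 members were lower at the adjusted p, or 33.3% of 39, against 8.32% of all genes, and 0 were higher, against 7.97%. At an unadjusted p under 0.05 the numbers were 18 lower (46.2%, background 17.5%) and 0 higher (background 15.6%). NPCT lay below all PCT libraries in 15 members (background 18.0%) and above them in 0 (background 15.4%). This comparison shares its libraries with the earlier ones and is no separate evidence for them.

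The lower members were 5 of the 7 tested alpha genes (Psma1, Psma2, Psma3, Psma5 and Psma6), Psmb2, the base genes Psmc6 and Psmd1, the lid genes Psmd6, Psmd7, Psmd12 and Psmd14, and the activator Psme2. Psma3 had the largest difference, -0.53 (SE 0.10, limma adjusted p = 0.0138), and Psma6 the smallest adjusted p, with -0.47 (SE 0.080, limma adjusted p = 0.0085). Psma1 was at 88.6, 92.2 and 87.4 FPKM in Control, 77.4, 75.5 and 78.8 in NPCT and 105, 114 and 84.3 in PCT. NPCT was the lowest group for this alpha gene (-0.38 against PCT, SE 0.099, limma adjusted p = 0.0345, and 0.0962 in the 2-group fit), while PCT replicate 3 lay below Control. Without PCT replicate 3 the difference of Psma1 was -0.50 (limma adjusted p = 0.00091), the only fit leaving out a library in which it passed. Psma5 was at 63.5, 61.5 and 64.9 FPKM in Control, 60.7, 57.2 and 67.5 in NPCT and 75.8, 71.9 and 84.0 in PCT, with PCT alone set apart (-0.32, SE 0.079, limma adjusted p = 0.0281).

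For Psmb2 the PCT libraries stood at 105, 102 and 98.8 FPKM, above all NPCT and Control libraries, and the difference between the peptides was -0.32 (SE 0.059, limma adjusted p = 0.0109). Psmd1, a large scaffold of the base, was at 76.9, 77.4 and 72.8 FPKM in Control, 64.2, 67.4 and 70.4 in NPCT and 87.9, 92.2 and 78.5 in PCT, 3 groups without overlap (-0.35, SE 0.070, limma adjusted p = 0.0145). Psmd7, the partner of the deubiquitinase Psmd14, was at 65.4, 63.6 and 65.1 FPKM in Control, 61.6, 58.1 and 64.6 in NPCT and 72.9, 70.5 and 72.4 in PCT. Its PCT libraries were above the other groups, which overlapped (-0.23, SE 0.054, limma adjusted p = 0.0256). Psmd14 itself differed by -0.28 (SE 0.059, limma adjusted p = 0.0174) and Psmc6 by -0.30 (SE 0.062, limma adjusted p = 0.0165). For Psmd6, with PCT at 93.6, 99.7 and 96.5 FPKM, the difference was -0.23 (SE 0.055, limma adjusted p = 0.0242), and for Psmd12 it was -0.27 (SE 0.072, limma adjusted p = 0.0384). Psme2 differed by -0.31 (SE 0.080, limma adjusted p = 0.0329) and Psma2 by -0.32 (SE 0.064, limma adjusted p = 0.0145).

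Several members had nearly equal means under the peptides, which the test cannot show to be alike. The difference was 0.028 for Psma7 (95% interval -0.16 to 0.21), 0.0090 for Psmb5 (-0.20 to 0.22) and -0.012 for Psmd4 (-0.17 to 0.15). Psmb6 had a mean 0.33 higher with NPCT (95% interval -0.035 to 0.69, limma adjusted p = 0.189). The number of lower members was 16 without PCT replicate 3 (background 14.5%) and 3 in the 2-group fit (background 1.83%), namely Psma3, Psma6 and Psmb2. Leaving out PCT replicate 1 gave 6 (background 2.68%), PCT replicate 2 gave 8 (2.51%), NPCT replicate 1 gave 2 (2.36%) and NPCT replicate 2 gave 5 (4.14%). Psma6 and Psmb2 passed in all 9 fits that left out a library, whereas Psma1 passed in 1, Psmd12 in 2 and Psme2 in 3. Without PCT replicate 3 Psma3 was a DEG (background 10.2%), with an NPCT difference of -0.64 (SE 0.073, limma adjusted p = 0.0011). In the same fit 2 members were higher with NPCT (background 14.6%), Psmb6 by 0.55 (SE 0.070, limma adjusted p = 0.0015) and Psmc3ip by 0.44 (SE 0.13, limma adjusted p = 0.0377).

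**Figure D3:**
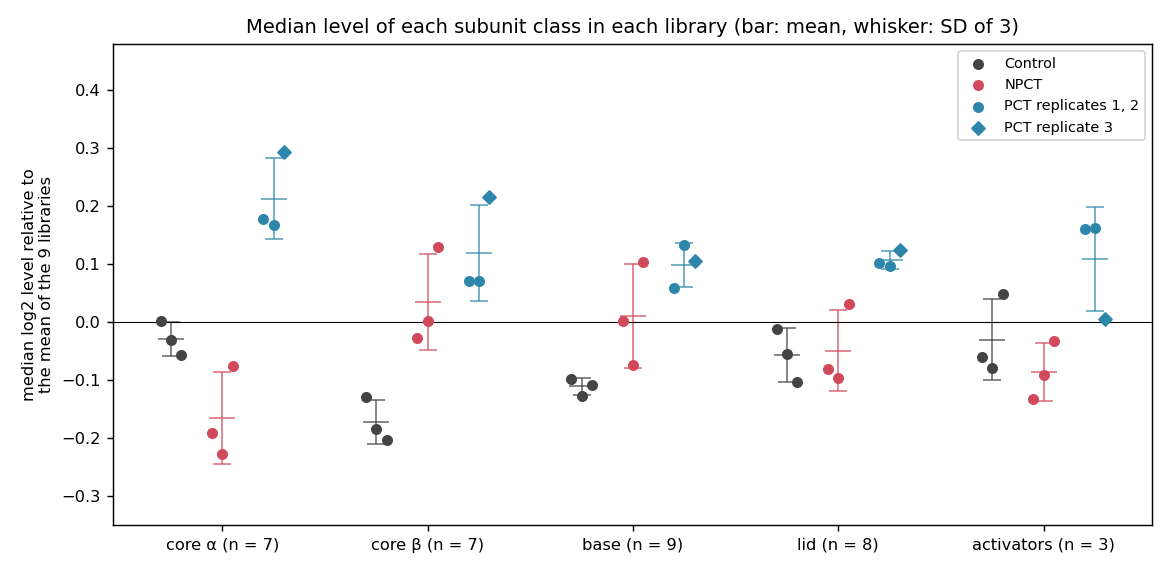
Median log2 level of each subunit class in each library, relative to the average over all 9 libraries, over 7 alpha, 7 beta, 9 base, 8 lid and 3 activator genes, with the mean and SD of the 3 libraries per group. NPCT lies lowest for alpha genes (from -0.23 to -0.076), Control lies lowest for beta genes (from -0.20 to -0.13), and PCT replicate 3 (diamond) lies highest for both.

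In the class medians of single libraries, NPCT lay below Control for alpha genes and above it for beta genes, whereas PCT lay above Control for both. The median log2 level of the alpha genes, relative to the average over all 9 libraries, was -0.029 ± 0.030 in Control, -0.16 ± 0.079 in NPCT and 0.21 ± 0.070 in PCT (SD, n = 3), and the 3 groups did not overlap. That of the beta genes was -0.17 ± 0.038 in Control, 0.035 ± 0.083 in NPCT and 0.12 ± 0.083 in PCT, where NPCT and PCT overlapped above Control. Base genes had -0.11 ± 0.015, 0.011 ± 0.090 and 0.099 ± 0.038 in the same order, and lid genes -0.057 ± 0.046, -0.049 ± 0.069 and 0.11 ± 0.015. In the lid Control and NPCT overlapped and PCT lay above them. No test was made on these medians.

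**Figure D4:**
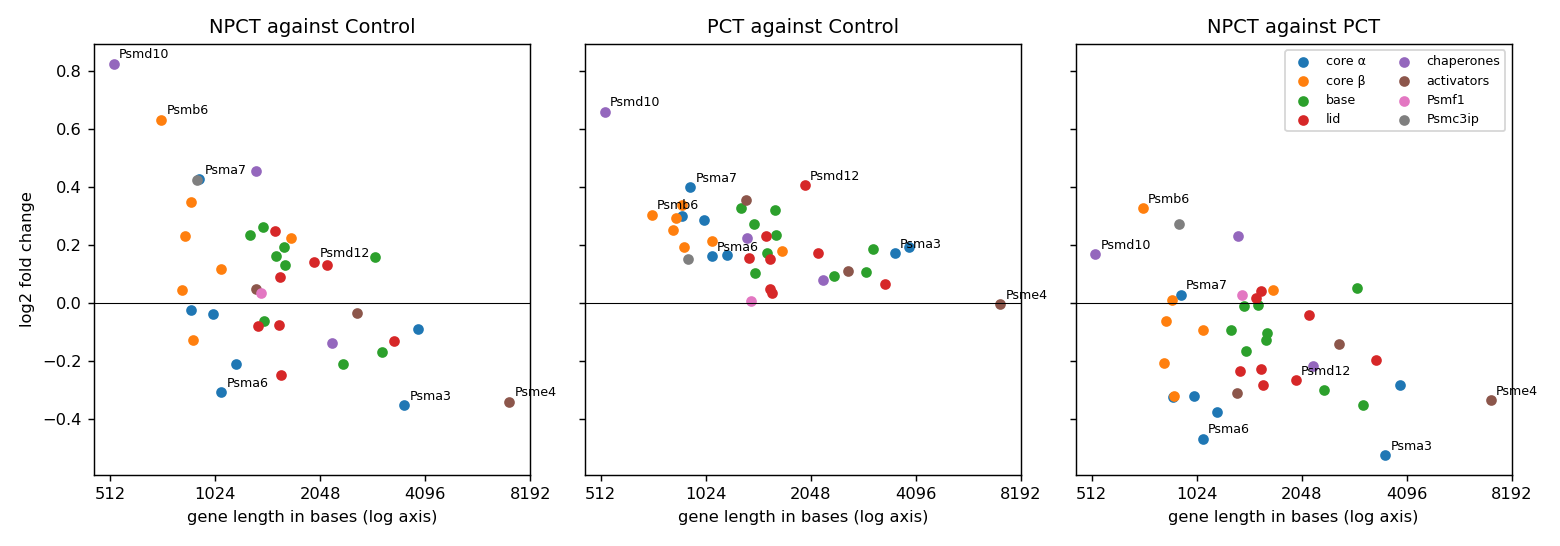
Log2 fold change of each of the 39 tested members against gene length in bases (log axis) in the 3 comparisons, coloured by class. With NPCT, short members such as Psmb6 lie higher and long ones such as Psme4 lie lower, while the alpha gene Psma6 lies below beta genes of like length.

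The differences also moved with gene length. Tested members had a median length of 1417 bases (525 to 7130), against 2136 for all genes tested. Across the 39 members the Spearman correlation of the log2 fold change with length was -0.48 with NPCT, -0.53 with PCT and -0.26 for NPCT against PCT, a description over genes that share the same libraries. Over all genes it was -0.22, -0.14 and -0.11. With NPCT, 13 of the 19 members shorter than the median were higher (median 0.12), and 9 of the 20 others (median -0.049). With PCT, 19 of 19 and 19 of 20 were higher. When each library's length trend was removed, 19 members were higher with NPCT and 20 lower, with alpha genes at a median of -0.16 (6 of 7 lower) and beta genes at 0.093 (5 of 7 higher), and 38 of 39 were higher with PCT, the exception being Psmf1 (-0.027) in place of Psme4. After this step 6 members were upregulated with PCT (background 1.92%), sharing 6 with the list above, among them Psmd12 at 0.40 (limma adjusted p = 0.0127). The part of length in the remaining differences was not tested.

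Of the other proteasome components and assembly factors, a list of genes outside the rule, 18 were tested. With NPCT 7 were higher and 11 lower, with 0 DEGs in limma (background 0.219%), and Sem1, a small lid protein whose symbol falls outside the rule, had the largest difference. Sem1 was at 27.9, 27.3 and 28.4 FPKM in Control, 51.1, 47.9 and 57.3 in NPCT and 33.8, 46.2 and 56.2 in PCT, so that every treated library exceeded Control. Its differences were 0.90 with NPCT (SE 0.16, limma adjusted p = 0.0509, and 0.0035 in the 2-group fit) and 0.67 with PCT (SE 0.16, limma adjusted p = 0.0497, and 0.105 in the 2-group fit), so that it was a DEG with PCT in the fit of all 9 libraries (background 2.31%) and not in that of the 2 groups. When single libraries were left out, this call passed in 1 of 9 fits, and that of Psmg1 with PCT in 3. Psmg1, a chaperone of alpha ring assembly, was upregulated by 0.27 with PCT (SE 0.054, limma adjusted p = 0.0313, and 0.0623 in the 2-group fit). Pomp, the maturation factor of the core, had the largest value with PCT, 0.96 (SE 0.38, limma adjusted p = 0.204), and a similar gene, LOC100911238, varied from 15.0 to 104 FPKM within the 9 libraries.

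Between the peptides 6 of the 18 were lower with NPCT (background 8.32%) and 0 higher (background 7.97%). They were Uchl5 and Usp14, deubiquitinases that bind the regulatory particle, Psmg1, the proteasome adaptor Ecpas, and the ubiquitin shuttles Rad23b and Ubqln4. In the 2-group fit Ecpas, Rad23b and Ubqln4 did not pass (limma adjusted p of 0.109, 0.0776 and 0.112). When single libraries were left out, Ecpas passed in 1 of 9 fits, Ubqln4 in 2, Rad23b in 6, Uchl5 in 8, and Usp14 and Psmg1 in 9. Usp14 was at 102, 109 and 103 FPKM in Control, 78.8, 80.5 and 82.3 in NPCT and 122, 120 and 98.4 in PCT. NPCT was lowest without overlap, and PCT replicate 3 lay below Control (-0.49 between the peptides, SE 0.082, limma adjusted p = 0.0081). Uchl5 had the largest difference, -0.72 (SE 0.14, limma adjusted p = 0.0141), and was a DEG.

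The immunoproteasome genes Psmb8, Psmb9 and Psmb10 replace the catalytic subunits in immune cells and after interferon. All 3 had higher means with NPCT, with a median of 0.53, and their NPCT libraries lay above Control (background 20.0%), yet none passed in limma. Psmb10 was at 24.2, 18.5 and 22.7 FPKM in Control, 30.7, 28.6 and 35.2 in NPCT and 22.5, 25.1 and 30.6 in PCT (0.53 with NPCT, SE 0.14, limma adjusted p = 0.0598, and 0.0251 in the 2-group fit). Psmb8 and Psmb9 were low, at 2.79 ± 0.29 and 6.67 ± 0.55 FPKM in Control. The summed microglial markers given above reached 199 FPKM in NPCT, but their NPCT range (43.7 to 199) overlapped with that of Control (33.0 to 46.4). All 12 tested microglial markers had higher means with NPCT, 2 of them without overlap (16.7%, background 20.0%). The part of microglia in the immunoproteasome values was not tested.

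Genes known to control proteasome transcription gave 9 tested genes, of which 7 had a positive log2 fold change with NPCT and 5 with PCT. Mafk, a small Maf partner of Nfe2l1 and Nfe2l2, was at 5.13, 5.84 and 5.01 FPKM in Control, 7.57, 8.14 and 7.44 in NPCT and 7.06, 6.94 and 7.28 in PCT. Its difference was 0.53 with NPCT (SE 0.089, limma adjusted p = 0.0493, background 0.269%) and 0.41 with PCT (limma adjusted p = 0.0387, and 0.0859 in the 2-group fit, background 1.75%), with no overlap with Control. When single libraries were left out, Mafk passed with NPCT in 2 of 9 fits, those without PCT replicate 1 or 3, and with PCT in 1, that without NPCT replicate 3. Maff had the largest value with PCT, 1.60 (SE 0.38, limma adjusted p = 0.0518). Nfe2l1 itself was at 54.1 ± 3.0 FPKM in Control, 58.1 ± 6.6 in NPCT and 51.7 ± 3.5 in PCT, and these ranges overlapped. Of the 9 genes, 2 were higher with NPCT than with PCT at the adjusted p (background 7.97%) and 0 lower (background 8.32%). These were Keap1 and Mafg, by 0.34 (limma adjusted p = 0.0462) and 0.30 (limma adjusted p = 0.0296). Among ubiquitin-activating enzymes and the Vcp complex, Uba6 was lower with NPCT than with PCT by -0.39 (limma adjusted p = 0.0426, background 8.32%), the Vcp cofactor Nploc4 by -0.26 (limma adjusted p = 0.0374) and its partner Ufd1 by -0.27 (limma adjusted p = 0.0386). Uba1 and Vcp did not pass (-0.11 and -0.086). In the 2-group fit the differences between the peptides of Keap1, Mafg, Uba6, Nploc4 and Ufd1 did not pass, with limma adjusted p-values from 0.0793 to 0.107, and when single libraries were left out they passed in 1 to 4 of 9 fits.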

How the data were processed

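RNA-seq was available from 3 Control, 3 NPCT and 3 PCT libraries. The authors aligned reads with HISAT2 2.0.5 to Rnor_6.0, counted them with featureCounts 1.5.0-p3 and tested counts with DESeq2 (versions and build from the submitters' processing notes). The deposited table holds FPKM per gene as calculated by the authors, and coordinates are those of the table. Whether counting used strand is not given in the sources used here. FPKM times length gave whole fragments in 100% of values (tolerance 0.05), between 13573056 and 17211642 per library.

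Since the values are FPKM, log2(FPKM + 0.1) of genes with a mean of at least 0.5 FPKM was modelled in R 4.3.3 with limma 3.58.1 over all 9 libraries, with 1 mean per group and a prior variance that follows the level. Tests were two-sided moderated tests, with p-values adjusted by Benjamini-Hochberg over all 15958 genes. DEGs changed by more than 1.5-fold with an adjusted p not above 0.05. The script was tested on simulated data. Alternatives were a fit of only the groups compared, a replicate block, removal of the length trend, pseudocounts of 1 and 0.01, other filters, quantile and median-ratio scaling, limma-voom on recovered fragments, and leaving out each library. The members and gene lists were chosen with earlier results of these data known. Named with values were the catalytic genes, the extremes of each class in level and difference, and every called member. Promoters came from RefSeq (GRCr8). Some ubiquitin genes are not reported here.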

Additional observations from a re-analysis of the deposited data

How the results depend on the processing

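None of the 19 differences called among the members changed sign under the 20 alternatives, leaving out a library included, nor did those named as called in the other lists. Of all 39 members, the difference moved by more than 1.5 times or changed sign in at least 1 of the fits that left out a library in 19 with NPCT, 19 with PCT and 20 between the peptides, and with the length trend removed in 18, 6 and 11. Of the settings tried on the main counts and medians 198 gave the same outcome and 42 moved it. With NPCT against Control, the number of DEGs among the members was 1 in place of 0 in the 2-group fit (3.63% of all genes), with the replicate block (2.00%) and with limma-voom (2.45%). It was 0 to 1 when single libraries were left out (0.00% to 3.52% of all genes). Members higher at the adjusted p, each beside the share of all genes, numbered 0 in the fit as reported (0.269%), 1 with a mean of at least 1 FPKM (2.50%), 9 in the 2-group fit (9.79%), 4 with the replicate block (3.98%), 1 without the length trend (1.20%), 2 with block and length together (2.20%), 1 after quantile normalization (1.71%) and 4 with limma-voom (5.30%), and 0 to 9 when leaving out a library, the 9 without PCT replicate 3 (9.71%). Members lower numbered 0 in the fit as reported (0.201%), 6 in the 2-group fit (9.06%) and 1 each with the higher filter (2.55%), the replicate block (3.76%), the length trend removed (1.11%), block and length together (1.66%) and quantile normalization (2.06%). They numbered 0 to 6 when leaving out a library (0.00% to 9.57% of all genes). The members' median of 0.046 ranged from 0.019 to 0.10 when leaving out a library and was -0.0045 without the length trend. With PCT against Control, members higher numbered 1 in place of 6 without a filter (0.788% of all genes) and in the 2-group fit (0.927%). They numbered 0 to 7 when leaving out a library (0.345% to 2.04% of all genes). The median of 0.18 became 0.17 without the length trend, with or without the replicate block, and 0.15 after quantile normalization (0.17 to 0.20 when leaving out a library). For NPCT against PCT, DEGs were 0 to 1 when leaving out a library (3.29% to 10.2% of all genes). Higher members were 0 to 2 in these fits (3.82% to 14.6%) and lower members 2 to 16 (2.36% to 14.5%). In the 2-group fit lower members were 3 (1.83% of all genes). The causes of these shifts were not tested. Replicate numbers did not pair the libraries (correlation of departures from -0.072 to 0.034), so the block is no stricter test of the effect. The differences seen here were mostly under 1.5-fold, and the size that 3 libraries per group can resolve was not tested. Psmd10 had only 7 to 35 fragments per library.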
